A study of Mus musculus with 6 samples.

Results

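The mRNAs described here encode 10 proteins that bind microtubules or their tubulin subunits: 6 microtubule-associated proteins (Map1a, Map1b, Map2, Mapt, Map4 and Map6) and 4 stathmins (Stmn1, Stmn2, Stmn3 and Stmn4). They were chosen by gene symbol, taking all their transcript rows in the deposited table, which gave 91 of 141196 transcripts. The samples were brain cortex of Fmr1 knockout (KO) and wild type (WT) mice of strain C57BL/6, 3 samples of each. Poly(A) RNA was read directly on nanopores of a PromethION instrument, so each read is 1 RNA molecule and carries its own poly(A) tail. The labels give neither the knockout allele nor the age or sex of the animals, and do not say that samples came from separate animals. The p-values below therefore measure only the spread between these samples, which may be technical.

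Microtubules are hollow polymers of tubulin that give axons and dendrites their shape and serve as tracks for transport. Microtubule-associated proteins (MAPs) bind along the polymer and stabilise or space it, whereas stathmins bind free tubulin dimers and favour disassembly. FMRP, the product of Fmr1, binds mRNAs in neurons and represses their translation, and the Map1b mRNA is one of its long-studied targets. The series asks how FMRP bears on poly(A) tail length, a feature of mRNAs tied to their stability and translation.

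The libraries held 2404074 to 3540416 reads with a tail length ("tail reads") in KO and 3214196 to 3849077 in WT. Fmr1 itself stood at 10.9, 11.8 and 8.22 CPM (tail read counts scaled to library size) in the KO libraries, against 41.7, 45.1 and 46.4 CPM in the WT libraries, and was thus low in each library labelled KO. Summed excitatory neuron markers were higher in every KO library (4235 to 4413 CPM) than in any WT library (3615 to 4004 CPM), with 7 of 7 markers read in every library. Singly, 4 of the 7 were higher and 3 lower in KO, and the sum was mostly Nrgn (2796 to 3014 CPM in KO, 2360 to 2641 CPM in WT), the only one called (edgeR, adjusted p = 0.0350). Summed immature neuron markers were lower in every KO library (38.4 to 46.0 CPM) than in any WT library (52.8 to 53.6 CPM), with 6 of 6 markers read in every library. Only 4 of the 6 had enough reads for the edgeR test. Of these 4, 1 was higher and 3 were lower in KO, and none was called. Inhibitory neuron (1299 to 1398 CPM in KO, 1230 to 1314 CPM in WT), oligodendrocyte (3630 to 3928 and 3609 to 4231 CPM), astrocyte (1461 to 1602 and 1469 to 1664 CPM), microglia (297 to 311 and 275 to 322 CPM) and striatal (671 to 756 and 603 to 848 CPM) markers overlapped between KO and WT. Among these the inhibitory marker Sst was called higher in KO (629 to 692 CPM in KO, 508 to 572 CPM in WT, edgeR, adjusted p = 0.0290), while the other 5 inhibitory markers were lower in KO and not called. Choroid plexus markers, of which 3 of 5 had a read in every library, summed to 13.5 to 27.4 CPM in KO and to 433, 33.9 and 835 CPM in WT replicates 1 to 3, and Ttr, which made up most of the sum, was called lower in KO (edgeR, adjusted p = 6.4e-05). In such bulk samples fewer cells of a type and less RNA per cell cannot be told apart.

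Tail reads of the 10 genes numbered 72301 and fell on 43 of the 91 transcripts, while 48 had none. For 27 isoforms every library had at least 10 tail reads, the minimum used for tail lengths. The remaining 16 with any read shared 189 tail reads. The stathmin mRNAs were short, with 1060 nt for the most read isoform of Stmn1, 1136 nt for Stmn3, 1303 nt for Stmn4 and 2073 nt for Stmn2. The MAP mRNAs were longer, at 3431 nt for Map6, 3446 nt for Map4, 5253 nt for Mapt, 5440 nt for Map2, 11808 nt for Map1b and 11825 nt for Map1a.

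A signal shortly before the end of an mRNA directs where it is cut and given its tail, so a stretch of 30 bases around it is printed here for the most read isoform of each gene with a signal, and for a second isoform of Map1a and of Map4 that ends elsewhere. Sequences are from the GENCODE M21 transcripts on GRCm38 and run 5′ to 3′ as DNA letters. Capitals mark the poly(A) signal, taken as the AATAAA nearest the annotated end within the last 50 bases, or ATTAAA where that window holds no AATAAA. Where the signal lies more than 18 bases from that end, as in Map1b-201 (39), Stmn1-201 (26), Map4-201 (24), Stmn2-201 (22) and Map1a-201 (21), the stretch stops short of the end. In Mapt-204 the marked AATAAA lies 0 bases from the annotated end, and another aataaa stands upstream in the same stretch, in lower case. Which of them serves as the signal was not tested.
Stmn1-201: atggttAATAAActgcacagtgctgttggt
Stmn2-201: gtgatgAATAAAgaattggagttctgtgaa
Stmn3-201: ggcaaccttAATAAAtctagtggcagtggc
Map1a-201: atatatATTAAAtctttgctcatatctgta
Map1a-202: cctctaacAATAAAccaagttcattgcaga
Map1b-201: ttccacAATAAAatacaaagtggcaaaagt
Map2-205: ttttgcaaAATAAAattgcttgtcacctaa
Mapt-204: tttggaaataaagttattactctgAATAAA
Map4-206: tgggcttatctAATAAAatgtgttgtgttt
Map4-201: ttaaacAATAAAgctgcctgacatcccacc
Map6-205: gaatctAATAAAattggttcctctggctca

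The signal AATAAA stood in the last 50 bases of 22 of the 27 isoforms, against 67.3% of the 15851 tested transcripts that have a sequence in this annotation. Map1a-201 had ATTAAA in place of it, as did 14.7% of tested transcripts. The 4 Stmn4 isoforms had neither hexamer in that window, as did 17.9% of tested transcripts. All these counts are per transcript. Isoforms that share an end, such as 5 of Map2 and 6 of Map6, repeat its signal, so the 22 are not separate sites. The last 150 bases were also searched on the sense strand for TTTTAT and TTTTAAT, forms of the element bound by CPEB1, a protein that regulates tail length in the cytoplasm. TTTTAT occurred in Map1b-201 and in the 3 Map4 isoforms of the distal end (Map4-201, Map4-204 and Map4-205), thus in 4 of 27, against 17.9% of tested transcripts. TTTTAAT occurred in none of the 27, against 6.85%. A match is a description of the letters and not a shown binding site.

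Stathmin mRNAs carried shorter tails than MAP mRNAs. The median over the 4 stathmin genes was 123 ± 1.13 nt in KO and 124 ± 0.166 nt in WT (SD, n = 3 each). The median over the 6 MAP genes was 151 ± 4.28 nt in KO and 151 ± 0.608 nt in WT, and that over all 11323 genes tested was 142 ± 2.16 nt in KO and 145 ± 2.67 nt in WT. In 5 of 6 libraries every stathmin lay below every MAP. The exception was KO replicate 2, where Stmn2 had 134 nt and Map1a 129.7 nt.

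**Figure D1:**
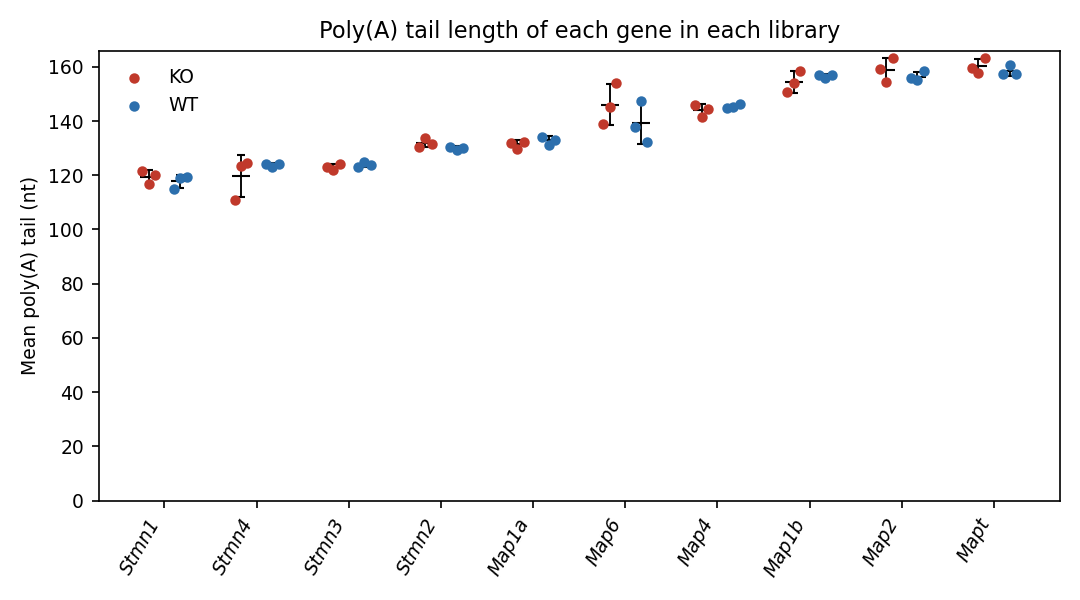
Mean poly(A) tail in nt (vertical axis) of each of the 10 genes over all its tail reads. Red points are the 3 KO libraries and blue points the 3 WT libraries, with black bars for mean ± SD, and genes are ordered by their mean over all 6. Stmn1 lies at 115 to 122 nt and Mapt at 157 to 163 nt, while KO and WT points sit at similar heights within each gene.

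Stmn1 (chr4:134468320-134473843, plus strand), the founding stathmin, had tails of 121.5, 116.8 and 120.2 nt in the KO libraries and 115.0, 119.1 and 119.3 nt in the WT libraries. It had the shortest mean tail of the 10, and 11.3% of all genes tested were shorter in KO and 9.38% in WT. Stmn4 (chr14:66344296-66361680, plus strand), a neuronal stathmin, had 111.0, 123.6 and 124.7 nt in KO and 124.1, 122.9 and 124.3 nt in WT. KO replicate 1 alone stood apart, below the other libraries, and the groups overlapped.

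Stmn3 (chr2:181306459-181314500, minus strand), also neuronal, had 123.2, 121.8 and 124.3 nt in KO and 123.1, 124.8 and 123.6 nt in WT, and its whole range over 6 libraries was 2.95 nt. Stmn2 (chr3:8509360-8561606, plus strand), which is enriched in growth cones and serves axon growth and repair, had 130.6, 133.8 and 131.6 nt in KO and 130.6, 129.4 and 130.2 nt in WT. Its KO libraries lay above its WT libraries, the nearest pair by about a thousandth of a nucleotide, and 3.22% of all genes had KO above WT in this way. Within the family the step from Stmn3 to Stmn2 held in 6 of 6 libraries (7.54 ± 2.42 nt, SD over 6 libraries), whereas Stmn1 and Stmn4 (3.12 ± 6.94 nt) and Stmn4 and Stmn3 (1.70 ± 5.29 nt) did not differ beyond their spread.

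Among the MAPs, Map1a (chr2:121289600-121310832, plus strand), a dendritic MAP of mature neurons, had the shortest tails, with 132.1, 129.7 and 132.4 nt in KO and 134.2, 131.3 and 133.1 nt in WT. It overlapped Stmn2 in range (1.12 ± 2.74 nt longer). Map6 (chr7:99267447-99337137, plus strand), which makes microtubules resistant to cold, had 138.9, 145.2 and 153.9 nt in KO and 137.8, 147.3 and 132.4 nt in WT, the widest scatter of the 10. Map4 (chr9:109931460-110083955, plus strand), a MAP expressed in many tissues, had 146.0, 141.6 and 144.5 nt in KO and 144.9, 145.2 and 146.2 nt in WT.

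Map1b (chr13:99421446-99516540, minus strand), the MAP of growing axons, had 150.6, 153.9 and 158.6 nt in KO and 157.1, 155.8 and 156.8 nt in WT. Map2 (chr1:66175273-66442583, plus strand), the classic dendritic MAP, had 159.2, 154.3 and 163.1 nt in KO and 155.8, 155.1 and 158.3 nt in WT. Mapt (chr11:104231390-104332090, plus strand), which encodes the axonal protein tau, had the longest mean tail, with 159.6, 157.5 and 163.2 nt in KO and 157.4, 160.5 and 157.4 nt in WT. KO and WT overlapped for each of these MAPs.

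The step from Map4 to Map1b held in 6 of 6 libraries (10.8 ± 3.31 nt). Neighbours Map6 and Map4 (2.14 ± 8.61 nt), Map1b and Map2 (2.2 ± 3.8 nt) and Map2 and Mapt (1.62 ± 2.34 nt) did not differ beyond their spread, and Map1a was shorter than Map6 in 5 of 6 libraries (10.5 ± 8.53 nt). Longer mRNAs had longer tails across the 10 genes, with a mean Spearman's rho of 0.73 in KO and 0.79 in WT, beside 0.49 in KO and 0.50 in WT over all genes tested. Map1a departed from this order, as the longest mRNA with the shortest tail of the 6 MAPs. These correlations are across genes of the same libraries and are given as a description.

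No tail length of the 10 genes differed between KO and WT by limma on log2(nt + 1). Log2 changes, KO over WT, ran from -0.05 ± 0.05 for Stmn4 to 0.07 ± 0.06 for Map6 (SE), with 5 genes longer and 5 shorter in KO. When each library was centred by its median, all of the shorter ones but Stmn4 turned longer, by at most 0.012 on the log2 scale. Their smallest adjusted p was 0.90, and 0 of 10 had an unadjusted p under 0.05. Over all genes the same test called 0 of 11323 (0%) and gave 742 an unadjusted p under 0.05, and 61.7% of genes were shorter in KO. The median log2 change was 0.00 over the 10 genes and -0.02 over all genes.

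The intervals bound what these libraries could have shown. The 95% interval of the KO over WT difference was -4.14% to 7.30% for Stmn1, -5.56% to 4.62% for Stmn3, -3.89% to 7.16% for Stmn2 and -6.44% to 4.55% for Map1a. It was -7.89% to 5.49% for Map1b, -5.33% to 8.90% for Map2 and -5.50% to 8.05% for Mapt. It was wider for Stmn4 (-11.0% to 5.01%) and Map6 (-4.66% to 15.5%), the 2 genes with fewest tail reads. For Map4 it was -6.78% to 5.23%.

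Tails of single isoforms followed the same pattern. Limma called 0 of the 27 isoforms (smallest adjusted p = 0.87, with 0 at an unadjusted p under 0.05) and 0 of all 16168 tested, of which 944 had an unadjusted p under 0.05. KO had the longer mean in 16 of the 27 and the shorter in 11. Map6-205 had 137.8, 142.4 and 160.7 nt in KO and 137.4, 136.0 and 133.7 nt in WT, with every KO value above every WT value, as for 3.41% of isoforms tested. Map1a-202 had 130.6, 130.8 and 129.5 nt in KO and 135.3, 131.5 and 136.1 nt in WT, with every KO value below, as for 7.53% of isoforms tested. Neither passed the test (adjusted p = 0.88 for Map6-205 and 0.93 for Map1a-202).

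**Figure D2:**
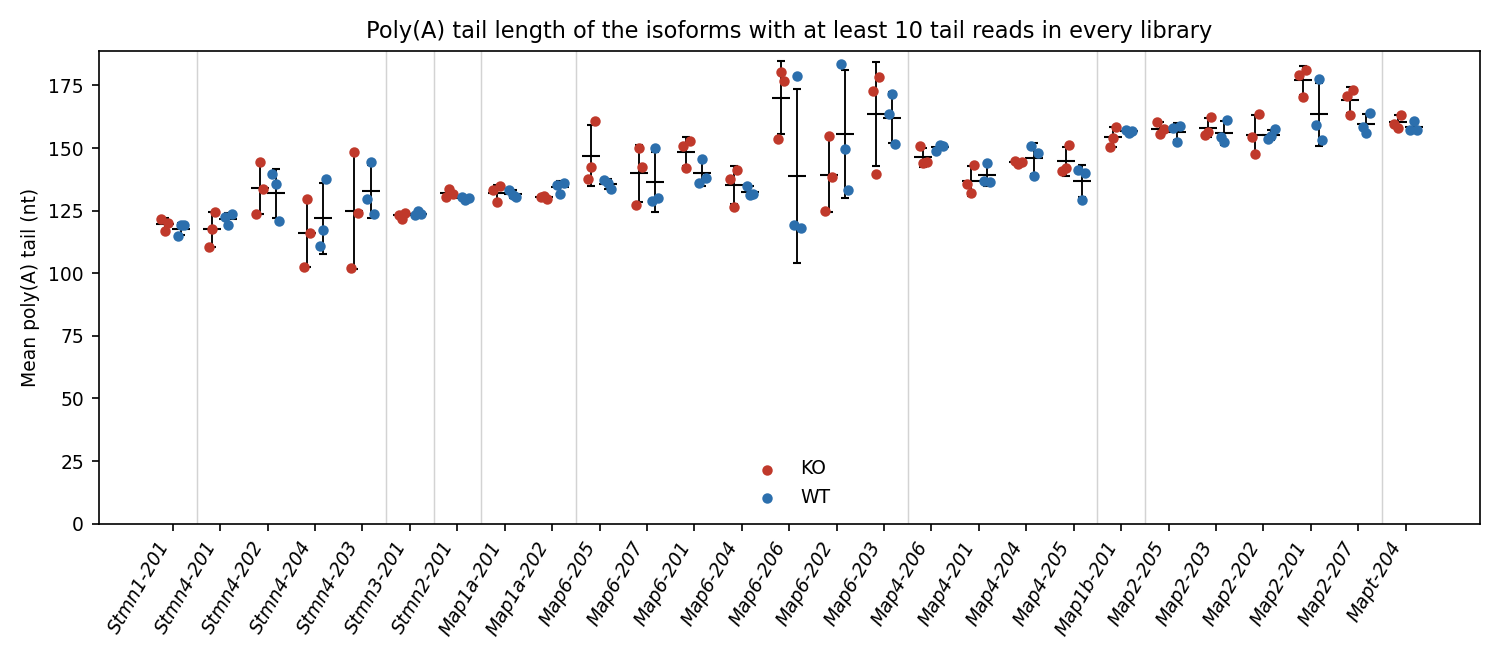
Mean poly(A) tail in nt (vertical axis) of the 27 isoforms with at least 10 tail reads in every library, grouped by gene and ordered by reads within it. Red points are KO libraries and blue points WT libraries, with black bars for mean ± SD. Isoforms with many reads, such as Stmn3-201, are tight, whereas Map6-206 spreads from 118 to 180 nt.

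The scatter between libraries followed read number. Over the 8 isoforms with at least 300 tail reads in every library, the range over 6 libraries had a median of 6.30 nt. It was 15.01 nt for the 10 isoforms with at least 50 but under 300 reads in the thinnest library and 35.3 nt for the 9 with fewer than 50. Map6-206 belonged to the last class, with 153, 180 and 177 nt in KO and 119, 179 and 118 nt in WT, where WT replicate 2 lay among the KO libraries. Its tails of 118 and 119 nt were the shortest library values among the Map6 isoforms with at least 10 tail reads in every library.

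Isoforms of 1 gene could be compared within the same libraries where 2 or more passed the read minimum, which held for 5 genes. Over all 3640 such genes limma called a difference between the second most read and the most read isoform in 500 (13.7%), and in 0 of these 5, with 2 at an unadjusted p under 0.05. Map4 was 1 of the 2. Map4-206, with 4 exons and an annotated protein of 99 residues, ends at position 110005739 of chromosome 9 and took the most Map4 reads, while Map4-201, with 19 exons and 1125 residues, ends at position 110083955 and belongs to a group of 3 isoforms ending there. Tails of Map4-206 were 150.6, 143.9 and 144.3 nt in KO and 148.9, 151.1 and 150.8 nt in WT. Those of Map4-201 were 135.5, 131.9 and 143.4 nt in KO and 136.7, 144.1 and 136.6 nt in WT. Map4-201 was shorter in 6 of 6 libraries, by 10.3 ± 5.37 nt on average (log2 -0.10 ± 0.04, limma, adjusted p = 0.11). This difference passed when at least 30 tail reads were required (adjusted p = 0.0400). Over all tail reads of the 3 isoforms of that end, tails were 140.0, 138.5 and 145.3 nt in KO and 141.5, 138.8 and 141.3 nt in WT. They were shorter than those of Map4-206 in every library except KO replicate 3. The difference between the ends was not tested.

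The other was Stmn4, where Stmn4-202 (176 residues) exceeded Stmn4-201 (189 residues) in 5 of 6 libraries, by 13.2 ± 9.71 nt (log2 0.15 ± 0.05, limma, adjusted p = 0.0765), although their annotated ends lie 6 nt apart. In Map1a the 2 isoforms end 1394 nt apart and differ in their signal, as shown above, yet Map1a-202 exceeded Map1a-201 by only 0.365 ± 3.88 nt (adjusted p = 0.96). Map2-203 and Map2-205 share their end and differed by -0.0870 ± 3.76 nt (adjusted p = 0.99). Map6-207 and Map6-205 also share theirs (-3.21 ± 12.1 nt, adjusted p = 0.73). Map2-201 and Map2-207, with fewer reads and ends within 2 nt of Map2-205, had longer mean tails than Map2-205. Those of Map2-201 were 177 ± 5.71 nt in KO and 163 ± 12.7 nt in WT. Those of Map2-207 were 169 ± 5.18 nt in KO and 159 ± 4.17 nt in WT. Map2-205 had 158 ± 2.46 nt in KO and 156 ± 3.38 nt in WT (SD, n = 3 each). These differences were not tested.

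RNA abundance differed between genotypes for 2 of the 10 genes, Map1a and Stmn1, by edgeR's quasi-likelihood test on tail reads. Over all genes 129 of 12543 were called (1.03%), 0.574% higher and 0.454% lower in KO. The 10 genes had a median log2 change of -0.01, with 5 higher and 5 lower. The same 2 genes, and no others of the 10, had CPM values that did not overlap between KO and WT, as 17.3% of all genes did. Because each read is 1 molecule, CPM values were not divided by transcript length.

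Map1a fell to 269.9, 277.1 and 271.2 CPM in KO, against 369.9, 337.5 and 331.3 CPM in WT. The 3 KO libraries lay close together and below every WT library, and the KO mean was 78.8% of the WT mean. By edgeR the log2 change was -0.34 with an SE of 0.06 (adjusted p = 0.00329). It was called under every alternative run for this gene, with adjusted p-values from 9.95e-05 to 0.0449, and its log2 change lay between -0.37 and -0.24. Without WT replicate 1 or WT replicate 3, the libraries with most choroid plexus markers, it was -0.29 and -0.37, and both were called.

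Both main Map1a isoforms were lower in KO. Map1a-201 (3014 residues) had 146.3, 135.6 and 152.5 CPM in KO, against 204.7, 183.1 and 178.2 CPM in WT (log2 -0.38 ± 0.08, edgeR, adjusted p = 0.0169). Among all transcripts 0.517% were called. Its call was lost without KO replicate 1 (adjusted p = 0.0923), 2 (0.246) or 3 (0.0578) and with an offset for transcript length (0.134). Map1a-202 (2776 residues) had 126.6, 145.5 and 121.7 CPM in KO and 167.6, 160.0 and 159.3 CPM in WT, again without overlap, as for 15.6% of all transcripts, and did not pass (log2 -0.31 ± 0.08, adjusted p = 0.0768).

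Transcript length moved with genotype across the whole table, and Map1a is among the longest mRNAs. The median log2 change was 0.06 for the 2005 genes under 1500 nt, 0.01 for the 6200 genes up to 4000 nt, -0.04 for the 3639 genes up to 8000 nt and -0.09 for the 699 longer ones, of which 71.1% were lower in KO. In that longest class 8 genes were called lower and 0 higher, and Map1a was lower than all but 96 of the 699. With an offset for length fitted over all genes, an alternative chosen after seeing the data, Map1a kept its call (log2 -0.24 ± 0.06, edgeR, adjusted p = 0.0449). Map1b, of nearly the same length, had a log2 change of -0.03 ± 0.10.

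Map1a reads also yielded a tail length less often in KO, in 66.2%, 65.7% and 66.7% of its reads, against 71.5%, 73.4% and 72.4% in WT, below every WT library as for 16.3% of all genes. The same held for 3 of the 10 genes, the others being Map6 (73.6%, 78.4% and 78.5% in KO, 80.1%, 85.3% and 90.0% in WT) and Stmn2 (74.8%, 73.4% and 75.3% in KO, 76.8%, 78.5% and 84.1% in WT). Over all genes that share was 74.8% to 77.3% in KO and 76.2% to 85.0% in WT. Counted over all reads recovered from the deposited RPM, Map1a fell by 0.31 on the log2 scale (edgeR, adjusted p = 0.00687).

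**Figure D3:**
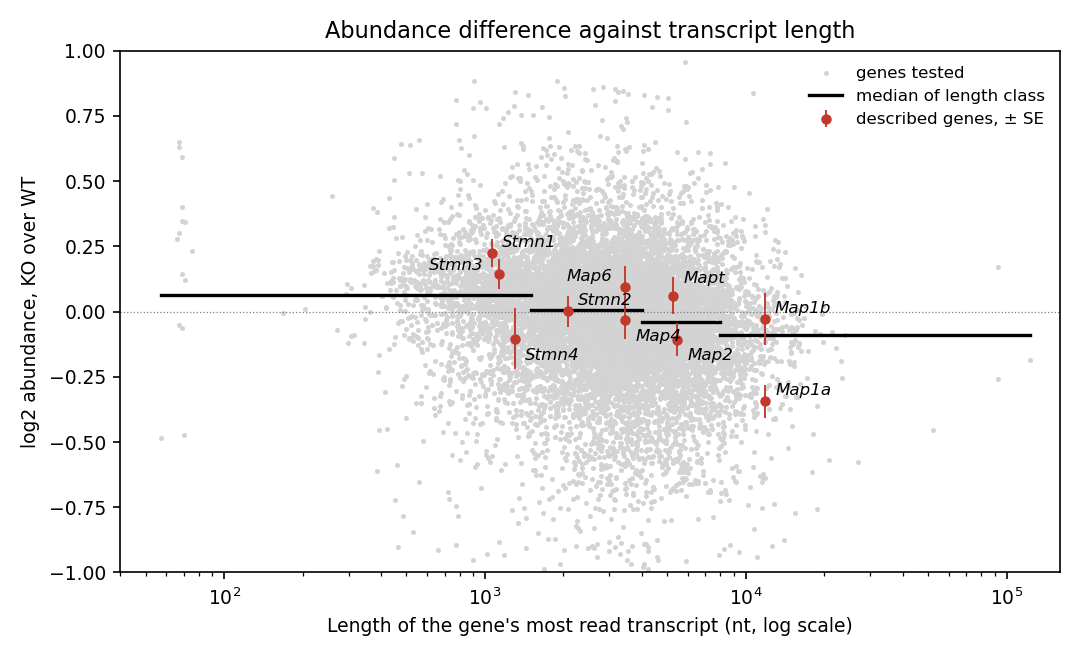
Log2 abundance, KO over WT (vertical axis), against the length in nt of each gene's most read transcript (horizontal log axis). Grey points are the 12543 genes tested, of which 50 lie beyond the drawn range of -1 to 1, black lines are medians of 4 length classes, and red points are the 10 genes with their SE. The medians step down from 0.06 to -0.09 with length, and Map1a lies below and Stmn1 above the median of its class.

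Stmn1, the most abundant of the 10, rose to 1081, 1140.3 and 1149 CPM in KO, against 967, 892.7 and 1023 CPM in WT. All KO libraries were above all WT libraries, and the KO mean was 117% of the WT mean (log2 0.22 ± 0.05, edgeR, adjusted p = 0.0357). The call was lost without KO replicate 1 (adjusted p = 0.0508), 2 (0.204) or 3 (0.164) or WT replicate 2 (0.211), on all reads, recovered from RPM (0.0510), by limma on log2(RPM + 1) (0.226) and with the replicate number as a block (0.0805). With the length offset the log2 change was 0.17 (adjusted p = 0.139). In the transcript test its main isoform, Stmn1-201, did not pass (log2 0.22 ± 0.06, edgeR, adjusted p = 0.0828). The summed excitatory neuron markers given above, mostly Nrgn, were also higher in every KO library and the summed immature neuron markers lower, and their part in the Stmn1 difference was not tested.

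**Figure D4:**
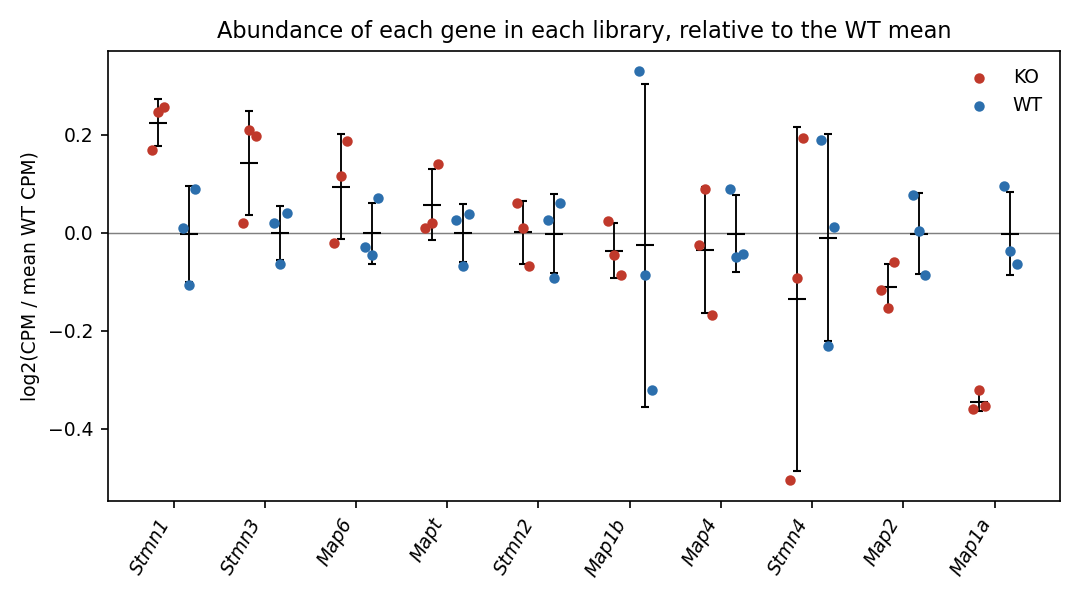
Abundance of the 10 genes in each library as log2 of CPM over the mean WT CPM (vertical axis), ordered by the edgeR log2 change. Red points are KO libraries and blue points WT libraries, with black bars for mean ± SD. Red and blue points separate fully for Stmn1 and Map1a and overlap for the other 8.

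The other stathmins did not pass. Stmn3 had 709.6, 808.9 and 801.7 CPM in KO and 709.1, 669.6 and 719.9 CPM in WT, with KO replicate 1 inside the WT range (log2 0.14 ± 0.06, edgeR, adjusted p = 0.27). Stmn2 had 481, 464.7 and 440.2 CPM in KO and 470.2, 433 and 481 CPM in WT, with no separation (log2 0.00 ± 0.06). Stmn4 was the most variable, with 75.4, 100.4 and 122.4 CPM in KO and 122.1, 91.2 and 107.9 CPM in WT (log2 -0.10 ± 0.12). Its lowest library was KO replicate 1, which also had its shortest tail.

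Map1b, a long-studied FMRP target, had 194.2, 185.1 and 179.9 CPM in KO and 240.1, 180.0 and 153.0 CPM in WT. The WT libraries alone spanned the KO range, so that no difference was detectable (log2 -0.03 ± 0.10, edgeR, adjusted p = 0.94), and the log2 change was 0.07 with the length offset. Map2 had 311.5, 303.6 and 324.0 CPM in KO and 356.4, 338.9 and 318.1 CPM in WT, with KO replicate 3 above WT replicate 3 (log2 -0.11 ± 0.06, adjusted p = 0.50). Mapt (165.8 ± 8.44 CPM in KO, 159.2 ± 6.43 in WT, log2 0.06), Map4 (214 ± 18.98 in KO, 219 ± 12.1 in WT, log2 -0.03) and Map6 (87.3 ± 6.38 in KO, 81.7 ± 3.58 in WT, log2 0.09) also overlapped (SD, n = 3 each; adjusted p of 0.68 or more).

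In Stmn1, Stmn3, Map1b and Mapt a single isoform took nearly all reads. Mapt-204, with an annotated protein of 372 residues, held 99.8%, 99.7% and 99.8% of Mapt reads in KO and 99.8%, 98.9% and 99.7% in WT. The isoform with the longest annotated tau protein, Mapt-203 (749 residues), had 0 of 3245. For that annotated isoform this allows a share of up to 0.0924% (3 reads, counting error only). Mapt-203 is annotated to end at position 104328187, upstream of the Mapt-204 end (104332090). An mRNA for the longer protein with the Mapt-204 end could be counted under another isoform, so its share is not bounded here. Map2 reads were assigned to 5 isoforms that share their 3′ end within 2 nt and are annotated with small MAP2 proteins of 466 to 498 residues. Map2-204, annotated with the 1828 residues of large MAP2, had 11 tail reads in all. Its annotated end (66439188) lies upstream of the shared end (66442581 to 66442583). A large MAP2 mRNA with the shared end could thus be counted under the small isoforms. These counts therefore do not give the share of large MAP2 mRNA. Direct RNA reads start at the tail, so the split between isoforms with a common end rests on how far reads reach and on the authors' assignment.

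Differences in isoform shares between genotypes were tested by edgeR's diffSpliceDGE, which called 4 of 4863 genes (0.0823%). None passed for Map1a, Map2, Map4, Map6, Stmn2 or Stmn4. Stmn1, Stmn3, Map1b and Mapt were not in that test, which needs at least 2 isoforms with enough reads. Map4 came nearest. Map4-206 took 56.7%, 58.5% and 55.3% of Map4 reads in KO and 45.6%, 53.0% and 50.7% in WT, and Map4-201 took 16.7%, 16.7% and 19.6% in KO and 26.4%, 18.9% and 20.6% in WT. Map4-206 was higher in every KO library than in any WT library, whereas KO replicate 3 exceeded WT replicate 2 for Map4-201 (diffSpliceDGE adjusted p = 1.0 for both, with the Map4 gene at an unadjusted, model-based p of 0.0473 over all tested genes by edgeR). Of the 24 isoforms of these genes tested for their share, 2 were higher in every KO library than in any WT library (Map4-206 and Map2-203) and 2 lower (Map6-207 and Map2-201), as were 5.18% and 5.54% of all isoforms tested. Map6-207 took 18.7%, 20.5% and 19.9% of Map6 reads in KO and 26.1%, 24.5% and 23.4% in WT. Map2-203 took 28.7%, 29.0% and 29.5% of Map2 reads in KO and 27.2%, 27.6% and 28.6% in WT, and Map2-201 took 7.10%, 7.64% and 6.70% in KO and 8.52%, 8.94% and 7.69% in WT. None of these passed (diffSpliceDGE adjusted p = 1.0). Map1a-201 took 53.6%, 48.2% and 55.6% of Map1a reads in KO and 55.0%, 53.3% and 52.8% in WT, and Stmn4-201 took 66.4%, 73.5% and 76.0% of Stmn4 reads in KO and 71.6%, 67.1% and 74.5% in WT.

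**Figure D5:**
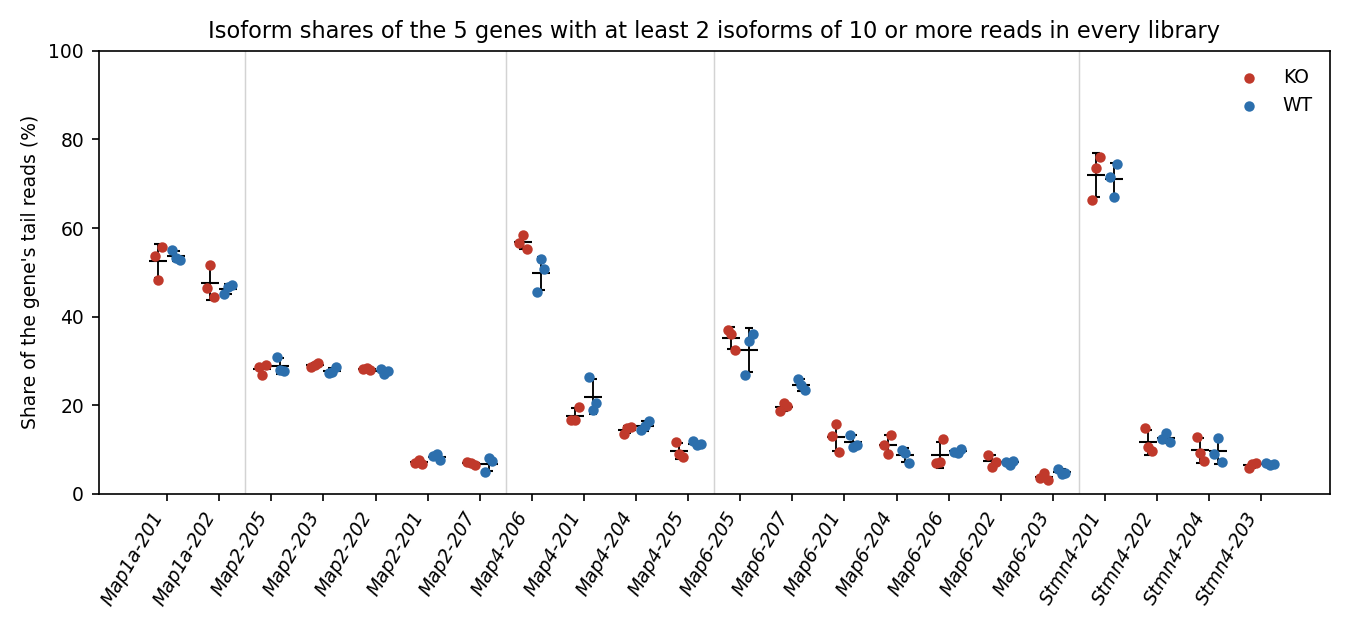
Share of each gene's tail reads in percent (vertical axis) taken by its isoforms, for the 5 genes with at least 2 isoforms of 10 or more tail reads in every library. Red points are KO libraries and blue points WT libraries, with black bars for mean ± SD. KO and WT points lie together for most isoforms, while Map4-206 is higher in KO (55.3% to 58.5%) than in WT (45.6% to 53.0%) and Map6-207 lower (18.7% to 20.5% in KO, 23.4% to 26.1% in WT). Map2-203 and Map2-201 also lie apart, by small gaps.

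Other genes of the microtubule system, 59 in 5 lists, were examined beside these. For tails, limma called 0 of the 53 tested, of which 3 had an unadjusted p under 0.05, and 13 were longer and 40 shorter in KO (median log2 -0.03, beside -0.02 over all genes), a split that became 24 and 29 when each library was centred by its median. For abundance, edgeR called 0 of 55 (5 had an unadjusted p under 0.05) and DESeq2 called 0 (3 had one). Of the 55, 31 were higher and 24 lower in KO, against 20 and 35 by limma on log2(RPM + 1), which also called 0 (7 had an unadjusted p under 0.05). The smallest adjusted p was 0.0621, for the tubulin deglutamylase gene Agtpbp1.

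By list, 14 of the 20 other MAPs and microtubule binders had shorter tails in KO, as did 2 of 3 severing enzymes. So did 4 of 6 tubulin folding factors, 9 of 12 genes listed for tubulin modification and 11 of 12 kinases of MAPs and stathmins with their scaffolds. Over all genes tested 61.7% were shorter in KO, and these counts are from tails that were not centred. Map1lc3a, which encodes a protein that serves autophagy, had 106 ± 1.44 nt in KO and 106 ± 2.08 nt in WT. The microtubule-binding kinase Dclk1 had 151 ± 1.58 nt in KO and 151 ± 3.75 nt in WT. Spast, which encodes the severing enzyme spastin, had 147.2, 143.7 and 137.8 nt in KO and 153.2, 155.0 and 155.6 nt in WT, with every KO value below every WT value, as for 8.44% of all genes, but not past the test (limma, adjusted p = 0.74).

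Among the others, the severing enzyme Katnal1 had 152 ± 7.17 nt in KO and 147 ± 4.52 nt in WT, and the tubulin folding cofactor Tbcb 109 ± 1.56 nt in KO and 105 ± 4.89 nt in WT (SD, n = 3 each). Arl2, a small GTPase of that pathway, had 125 ± 4.62 nt in KO and 127 ± 1.61 nt in WT. The deacetylase Sirt2 had 126 ± 7.15 nt in KO and 134 ± 5.55 nt in WT, and the tubulin polyglutamylase Ttll7 155 ± 6.04 nt in KO and 157 ± 3.35 nt in WT. Mapk8ip1, a scaffold of JNK signalling, had 128 ± 3.42 nt in KO and 126 ± 2.74 nt in WT, and the kinase Gsk3a 129 ± 2.68 nt in KO and 129.6 ± 4.06 nt in WT. None of these differed past the test (limma, adjusted p of 0.86 or more).

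The authors' deposited table gives its own log2 value per transcript without stating its direction. Fmr1, low in KO, is positive there, so the values were read as WT over KO. In the authors' deposited table Map1a-201 had 0.31 (p = 0.000700) and Map1a-202 0.26 (p = 0.00564), both lower in KO, and Stmn1-201 had -0.23 (p = 0.000324) and Stmn3-201 -0.16 (p = 0.0248), both higher in KO. In the authors' deposited table Map1b-201 had -0.11, thus higher in KO, with an unadjusted p of 0.233 from the authors' fit over all transcripts. By edgeR above, its log2 change was -0.03 ± 0.10 KO over WT, the opposite direction, and it was not called either. These p-values are unadjusted and come from the same libraries as the tests above.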

How the data were processed

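Poly(A) RNA from 6 cortex samples was read with the SQK-RNA002 direct RNA kit, per the labels' protocols. Per the file headers, the authors deposited, for each transcript and sample, a mean tail length in nt, the count of reads behind it and an abundance in RPM, together with log2 values and p-values of their own comparison. Build mm10 and the tools DESeq2, Salmon 1.5.2, SAMtools 1.9 and minimap2 2.17 are listed in the submitters' processing notes. The sources used here do not give the tail estimator, and any bias of that step enters every length.

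Gene tails are means weighted by read count. Tails were tested with limma 3.58.1 on log2(nt + 1), counts with edgeR 4.0.16 (TMM, filterByExpr, quasi-likelihood; diffSpliceDGE for isoform shares), with R 4.3.3. P-values were adjusted over all features tested (Benjamini-Hochberg, threshold 0.05). CPM values were scaled by TMM separately for genes and transcripts. The intervals come from the limma fit. The fits were tested on simulated data. In the lowest library 99.87% of the deposited RPM values came to a whole number of reads (within 0.01). Identifiers were matched to GENCODE M21 (97.6% found); the authors' release may differ. Alternatives left out each replicate, used the replicate number as a block, changed filters, scaling or pseudocount, weighted or centred tails, or used DESeq2 1.42.0, RPM or recovered reads.

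The genes, gene lists and marker lists were chosen with earlier results of these data known. Every one of the 10 genes is named, with up to 2 of its most read isoforms past the read minimum. Further isoforms are named where they passed a threshold, held an extreme tail or show an isoform class. Not every isoform with an extreme tail is named. Of each other microtubule list, members past the threshold or else the 2 with most reads are named. Cell type markers past the threshold, Agtpbp1 and Map2-201 were named after their values were seen.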

Additional observations from a re-analysis of the deposited data

How the results depend on the processing

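Map1a kept its abundance call under every alternative, and the call of Stmn1 was lost under 8 of 13. No tail length of the 10 genes passed under any. With weights from read number limma called 22 transcripts and 28 genes for tail length over the whole table, none of them of these 10 genes. Genes called for abundance numbered 57 to 206 without single replicates, 62 with DESeq2, 249 without a filter and 40 with limma on log2(RPM + 1), against 129. Transcripts called numbered 44 to 163, 28, 180 and 34 in the same order, against 103. Isoform usage calls were 2 at 10 or more reads per sample, against 4, and isoform tail differences 298 at 30 or more reads, against 500, and 335 to 428 without single replicates.

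With the replicate number as a block 92 genes and 171 transcripts were called for abundance. Stmn1 was lost (adjusted p = 0.0805) and Map1a-202 gained (adjusted p = 0.0402). Same-numbered samples shared only a number: their deviations correlated at 0.02, -0.07 and 0.05 for abundance.

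Several log2 values near 0 changed sign. Tails centred by the sample median gave 0.012 for Stmn3, 0.011 for Stmn3-201, 0.0069 for Map4, 0.0049 for Map1a and 6.0e-05 for Map1b. The length offset gave -0.022 for Stmn2, 0.074 for Map1b, 0.072 for Map1b-201, 0.0042 for Map2-203 and -0.056 for Stmn2-203. Limma on log2(RPM + 1) gave -0.037 for Stmn2 and -0.096 for Stmn2-203, and no filter gave 0.012 for Stmn2-201. Without single replicates, abundance ranged from -0.17 to 0.17 for Map1b, -0.16 to 0.16 for Map1b-201, -0.091 to 0.034 for Map4, -0.040 to 0.038 for Stmn2, -0.043 to 0.035 for Stmn2-201, -0.17 to 0.40 for Stmn2-203, -0.30 to 0.074 for Stmn4 and -0.32 to 0.15 for Stmn4-201. Tails ranged from -0.0073 to 0.026 for Map1a-201, -0.0011 to 0.043 for Map2-203, -0.0052 to 0.023 for Map2-205, -0.057 to 0.0033 for Map4-201, -0.014 to 0.11 for Map6-207, -0.079 to 0.0042 for Stmn4 and -0.041 to 0.075 for Stmn4-202. Isoform tail differences ranged from -0.0073 to 0.013 in Map1a and from -0.011 to 0.011 in Map2. Usage ranged from -0.074 to 0.024 for Map1a-201, -0.027 to 0.081 for Map1a-202, -0.054 to 0.025 for Map2-205, -0.0026 to 0.19 for Map6-205, -0.0027 to 0.00096 for Stmn2-201, -0.17 to 0.37 for Stmn2-203 and -0.040 to 0.087 for Stmn4-201. The cause of these changes was not tested.

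DESeq2 gave no adjusted p for Map6-205, Map6-207, Stmn2-203 and Stmn4-202. Depth limits the isoforms with few reads, and 3 samples a group cannot give a two-sided exact permutation p below 0.1.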

Other observations

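Reads assigned to Map2-204, the isoform annotated with large MAP2, mostly had no tail length. The isoform had 4.25, 5.92 and 5.17 RPM in KO and 4.27, 5.35 and 10.4 RPM in WT, but only 0, 3 and 0 tail reads in KO and 0, 1 and 7 in WT. Those tail reads had mean tails of 5 nt in KO replicate 2 and of 4 and 30 nt in WT replicates 2 and 3, far below the 159 ± 4.42 nt of Map2 as a whole in KO and 156 ± 1.70 nt in WT. The annotated end of Map2-204 (66439188) lies upstream of the end shared by the 5 main isoforms (66442581 to 66442583). What these reads are was not tested, and the isoform was singled out after its values were seen.

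The share of reads with a tail length differed between the genes within a library. It was low for Mapt (67.9%, 64.7% and 69.8% in KO, 69.1%, 74.7% and 73.0% in WT) and Map1b (68.2%, 66.2% and 69.3% in KO, 68.5%, 71.0% and 71.6% in WT) as well as for Map1a. Map6 had the highest share in 4 of the 6 libraries. Abundance counted on tail reads therefore does not weigh all 10 genes alike, and the shares of Map1a, Map6 and Stmn2 lay lower in every KO library than in any WT library, as for 16.3% of all genes.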
